A study of Papio anubis with 8 samples.

Results

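The 58 genes described here encode the collagens and a set of proteins that surround them in the matrix of the meninges, vessel walls and brain tissue. They are the 44 rows of the deposited table whose symbol is that of a collagen chain, and the 14 genes DCN, LUM, OGN, FMOD, BGN, ASPN, ABI3BP, SPON1, SPON2, FBLN1, FBN1, ELN, MGP and POSTN, out of 37053 genes. The rule reads gene symbols, and the set was proposed with earlier results of these data known. RNA was measured in the hippocampus of olive baboon (Papio anubis) fetuses at 0.9 of term, in a study of dams with differing adiposity and leptin. The labels name 8 libraries, AMB3 to AMB10, and give no maternal group, sex or treatment for any of them, so the libraries are described as 1 set and no groups were compared. No label says that each library is a fetus of its own. The p-values below refer only to how pairs of genes varied together over these libraries, which are taken as independent.

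Collagens are secreted proteins in which chains wind around each other as trimers, and each type has its own shape and place. Fibrillar collagens such as types I and III make the ropes of connective tissue, and in the brain they are made mainly by fibroblasts of the meninges and around vessels. Type IV collagen forms the sheet of the basement membrane under vessel endothelium, and the small leucine-rich proteoglycans bind fibrils and set their width. Neurons and glia also make some collagens, among them membrane-bound and fibril-associated types.

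The unit of all levels is CPM, counts per 1000000 with each library's total corrected by edgeR's trimmed mean of M-values. The log2 range is the log2 CPM in a gene's highest library minus that in its lowest. CPM takes no account of transcript length, so levels are compared between libraries and not between genes. Totals ran from 40404878 counts in AMB9 to 71648654 in AMB10. Markers of hippocampal neurons were present in every library, with the glutamate transporter SLC17A7 between 804.5 and 1363 CPM, but some markers of hippocampal fields differed widely. PROX1, a transcription factor that marks granule cells of the dentate gyrus, lay between 14.4 CPM in AMB5 and 96.6 in AMB8, with 81.7 in AMB10 and 49.0 in AMB3. FIBCD1, another field marker, reached 399 CPM in AMB8 and 366 in AMB10, while no other library passed 83.9. AMB8 and AMB10 stand apart in PROX1 and FIBCD1. AMB3 does so less in PROX1 and not in FIBCD1, where AMB4 had 76.8 CPM. Of the same marker list, CAMK2A was also highest in AMB8 (2356 CPM) and AMB10 (2254). WFS1, lowest in AMB5 (54.4 CPM), and NEUROD6 and SLC17A7, highest in AMB5 (310.4 and 1363 CPM), did not set these libraries apart. Counts below are also given without AMB3, AMB8 and AMB10, an alternative chosen after seeing the data. In the authors' normalized columns the median over these libraries is 0 for 100% of the genes that passed the filter described below. In bulk tissue, fewer cells of a type and less RNA per cell cannot be told apart.

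Collagen and matrix genes differed widely between libraries. Of the 58 genes, 53 passed a filter that asked for about 10 counts in every library. A log2 range of at least 1 was found in 46 of these 53, beside 36.1% of all 16874 genes that passed. A range of at least 2 was found in 26 of 53, beside 9.0% of all genes that passed. The median range was 1.96, against 0.77 over all genes, and the median level of the 53 genes was 13.1 CPM against 19.3 CPM. Without AMB3, AMB8 and AMB10 the counts were 31 and 15 of 53, beside 19.8% and 3.41% of all genes. Without AMB4 and AMB7, in which many of the genes were highest, they were 40 and 23, beside 30.7% and 6.83%.

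**Figure D1:**
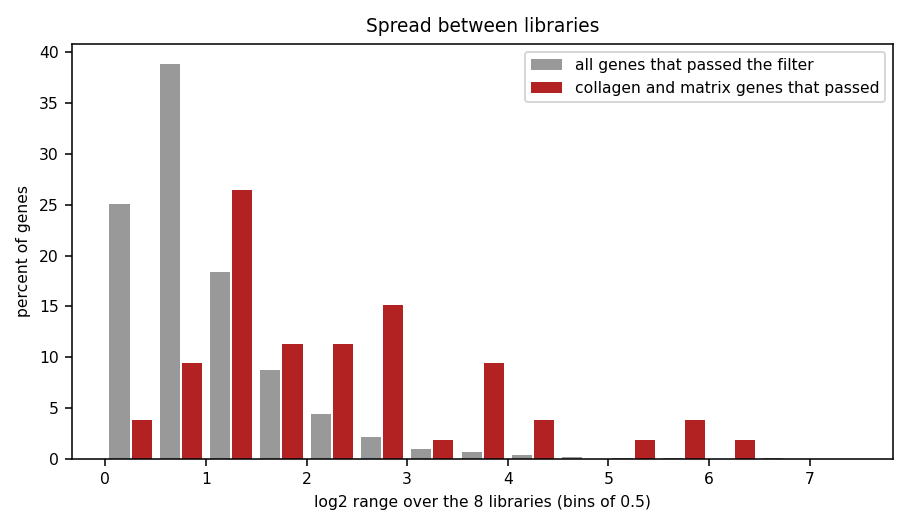
Percent of genes (vertical axis) by log2 range over the 8 libraries (horizontal axis, bins of 0.5) for all 16874 genes that passed the filter (grey) and for the 53 collagen and matrix genes among them (red). The red bars lie further to the right, with medians of 1.96 and 0.77.

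The genes did not all have their extremes in the same library. AMB4 was the highest library of 13 of the 53 genes, beside 7.30% of all genes, and AMB7 of 12, beside 15.5%. AMB10 was the highest of another 12, beside 16.7% of all genes. AMB5 was the lowest library of 21, beside 17.0% of all genes, and AMB8 of 16, beside 12.3%. For 10 of the 53 AMB3, AMB4 and AMB7 were the 3 highest libraries, beside 1.33% of all genes, and for 8 AMB5, AMB6 and AMB8 were the 3 lowest, beside 2.34%. AMB8 or AMB10 was lowest for 18, beside 28.3% of all genes, and highest for 15, beside 28.7%. Summed over all 58 genes, the level was lowest in AMB5 (949.9 CPM) and highest in AMB4 (1841 CPM), or 0.0907% and 0.186% of the counts of these libraries.

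**Figure D2:**
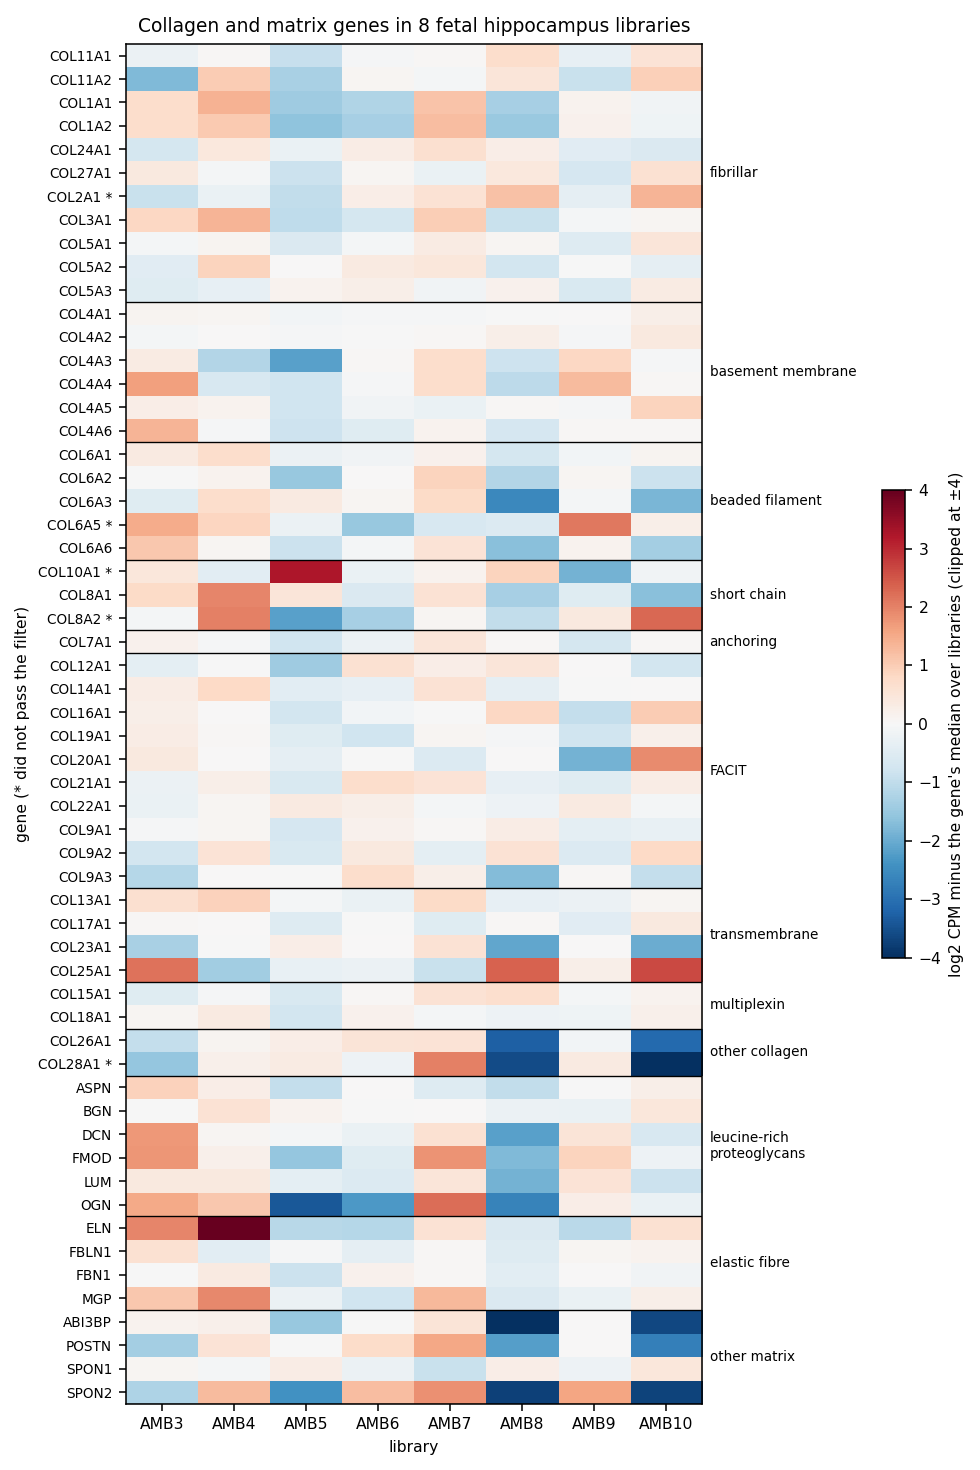
Levels of the 58 genes (rows, by kind of protein) in the 8 libraries (columns), as log2 CPM minus the median of each gene over libraries, clipped at 4 on either side. COL4A1 and COL4A2 are nearly even, type I and III collagens are high in AMB3, AMB4 and AMB7, and COL26A1, ABI3BP and SPON2 are low in AMB8 and AMB10.

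The main fibrillar collagens were high and low in the same groups of libraries, with small differences of order within these. COL1A1 (chromosome 17, 42488567 to 42506172) and COL1A2 (chromosome 4, 73379175 to 73416237) encode both chains of type I collagen, the chief collagen of connective tissue. COL1A1 lay between 18.6 CPM in AMB5 and 129.6 in AMB4, with a median of 50.0. COL1A2 lay between 21.2 CPM in AMB5 and 151.9 in AMB7, with a median of 65.5. COL3A1 (chromosome 10, 72661646 to 72699877), the single chain of type III collagen of soft tissues and vessel walls, ran from 27.2 CPM in AMB5 to 141 in AMB4, with a median of 55.4. All 3 genes were high in AMB3, AMB4 and AMB7, low in AMB5, AMB6 and AMB8, and between these in AMB9 and AMB10. Their log2 ranges were 2.80, 2.84 and 2.37. Leaving out AMB3, AMB8 and AMB10 did not alter these ranges, and without AMB4 and AMB7 they were 2.13, 2.32 and 1.85. Summed over the 3 genes, the level was 66.99 CPM in AMB5 and 405 in AMB4.

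**Figure D3:**
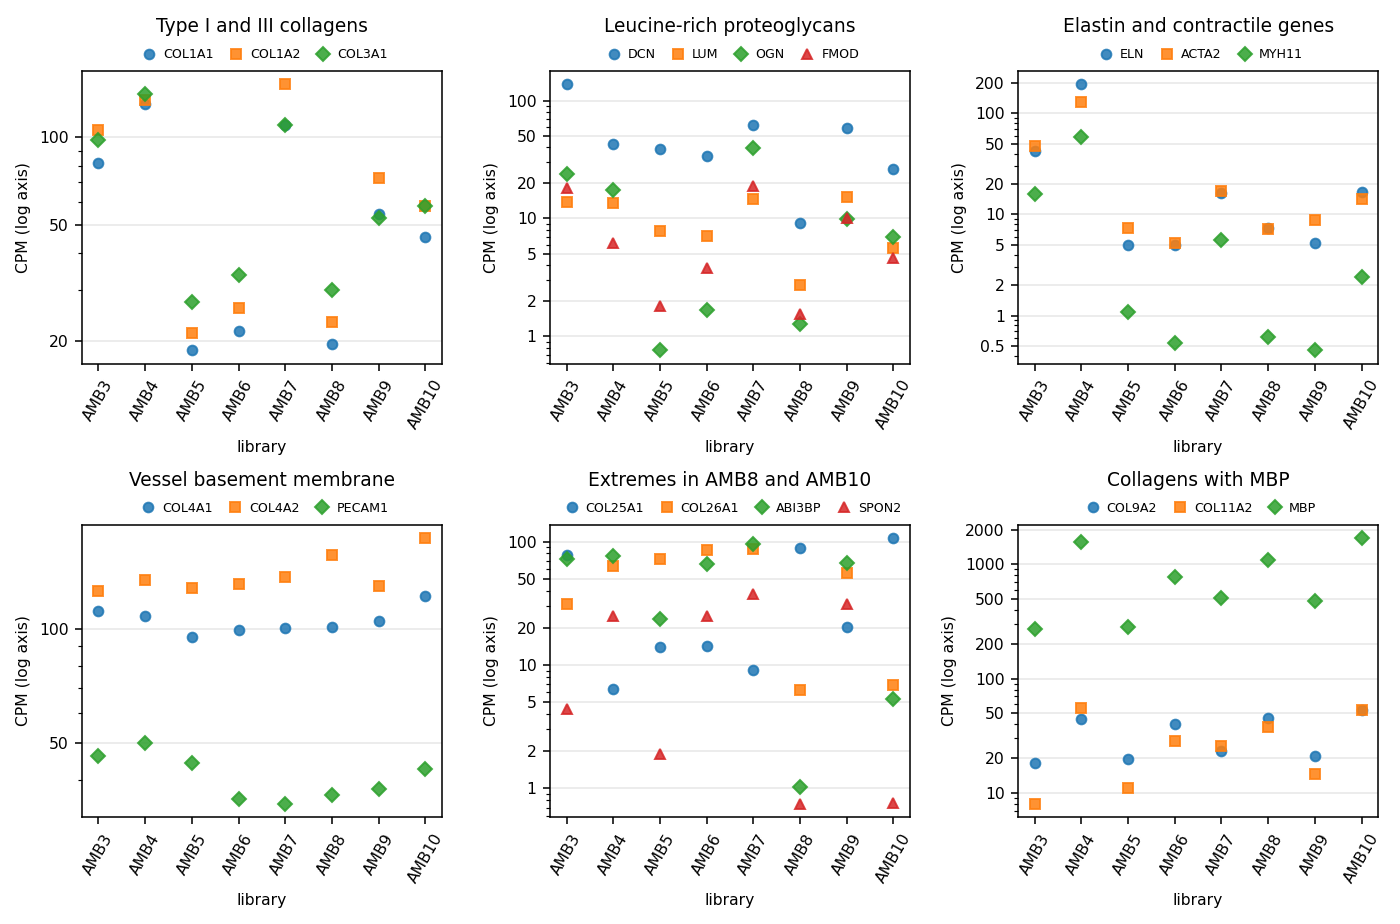
CPM on a log axis (vertical) in each library (horizontal) for 6 sets of genes, each point 1 library. Type I and III collagens are highest in AMB3, AMB4 and AMB7, ELN, ACTA2 and MYH11 are highest in AMB4 and AMB3, COL4A1, COL4A2 and PECAM1 differ little, and COL26A1, ABI3BP and SPON2 have their lowest values in AMB8 and AMB10, where COL25A1 is highest.

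The minor fibrillar collagens that passed the filter had log2 ranges of 0.96 to 2.78. Type V collagen sits inside type I fibrils and starts their assembly. Its chain COL5A1 lay between 21.9 CPM in AMB5 and 46.0 in AMB10 (median 32.7). COL5A2, which lies 17091 bases from COL3A1 on the opposite strand, ran from 14.3 CPM in AMB8 up to 44.5 in AMB4 (median 24.0). COL5A3 lay between 22.5 CPM in AMB9 and 43.7 in AMB10 (median 34.9). The 3 chains of type V thus had their highest values in AMB10 or AMB4 and their lowest in 3 different libraries. Type XI collagen is best known from cartilage. Its chain COL11A1 lay between 22.4 CPM in AMB5 and 69.3 in AMB8 (median 42.3), a log2 range of 1.63 that was 1.03 without AMB5. COL11A2 had a wider range of 2.78, from 7.97 CPM in AMB3 to 54.9 in AMB4 and 52.8 in AMB10 (median 27.0). COL24A1 and COL27A1, other fibrillar chains, had log2 ranges of 1.33 and 1.49, at 2.71 to 6.87 and 2.39 to 6.78 CPM. COL2A1, the collagen of cartilage, did not pass the filter and had 6 to 60 counts per library. Of the 11 fibrillar genes, 10 passed the filter, and 4 of them had a range of at least 2, beside 9.0% of all genes.

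Basement membrane collagen held both the most even of all these genes and several uneven ones. COL4A1 and COL4A2 encode the chains of the common type IV network of vessels. They lie head to head on chromosome 15 (88244068 to 88397351 and 88397470 to 88596767), with 118 bases between the gene models. COL4A1 ran from 95.4 CPM in AMB5 to 122 in AMB10, with a median of 103.1, and COL4A2 from 126 CPM in AMB3 to 173 in AMB10, with a median of 133. Their log2 ranges of 0.36 and 0.46 were the smallest of the 53 genes, and were 0.22 and 0.32 without AMB10. The endothelial marker list was less even, with a median range of 0.63, against 0.77 over all genes. Of its 9 genes, 1 had a range of at least 1, beside 36.1% of all genes, and summed levels ran from 193 to 264 CPM. PECAM1, an adhesion protein of endothelium, lay between 34.6 CPM in AMB7 and 50.1 in AMB4. The widest of these was VWF, the clotting factor stored by endothelium, with a range of 1.23.

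The other type IV chains build the networks known from kidney, eye and ear. COL4A3 and COL4A4 also lie head to head, 129 bases apart on chromosome 10. COL4A3 lay between 0.253 CPM in AMB5 (11 counts) and 2.26 in AMB9 (median 1.26), and COL4A4 between 1.09 CPM in AMB8 and 7.14 in AMB3 (median 2.29). COL4A5 and COL4A6 form such a pair on the X chromosome, 276 bases apart. COL4A5 lay between 5.36 CPM in AMB5 and 17.2 in AMB10 (median 9.26), and its range of 1.67 was 1.06 without AMB10. COL4A6 reached 4.14 CPM in AMB3, where its next highest library, AMB7, had 1.72 and its lowest, AMB5, had 0.875 (median 1.58). Its log2 range of 2.20 was 0.95 without AMB3. In 4 of the 6 type IV genes AMB5 was the lowest library, beside 17.0% of all genes. COL4A1 is among them by a small margin, with 95.4 CPM in AMB5 and 99.4 in AMB6.

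Type VI collagen makes beaded filaments around cells. AMB8 was the lowest library of 3 of its 4 tested genes (COL6A1, COL6A3 and COL6A6), beside 12.3% of all genes. COL6A1 ran from 11.7 CPM in AMB8 up to 31.1 in AMB4 (median 19.1), and its range of 1.41 was 0.94 without AMB8. COL6A2 lay between 18.3 CPM in AMB5 and 97.9 in AMB7 (median 52.6), a range of 2.42 that was 1.67 without AMB7. COL6A3 was lowest in AMB8 (3.85 CPM) and AMB10 (6.55), and highest in AMB7 (39.2), with a median of 23.2. The log2 range of COL6A3 was 3.34 over 8 libraries and 0.84 without AMB3, AMB8 and AMB10. COL6A6 lay between 0.284 CPM in AMB8 and 2.14 in AMB3 (median 0.993), and COL6A5 did not pass the filter, with 4 to 52 counts.

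Small leucine-rich proteoglycans had a median log2 range of 3.02 over 6 genes, 4 of them with a range of at least 2, beside 9.0% of all genes. DCN, decorin, which coats collagen fibrils, and LUM, lumican, its neighbour, lie on one strand of chromosome 9 (85570995 to 85608697 and 85529015 to 85537398) with 33596 bases between them. DCN stood at 137 CPM in AMB3, 62.0 in AMB7, 58.1 in AMB9 and 9.11 in AMB8, with a median of 40.9. LUM stood at 15.3 CPM in AMB9, 14.6 in AMB7 and 2.75 in AMB8, with a median of 10.8. AMB8 was lowest and AMB10 next lowest for both genes. The range of DCN was 3.91, and it was 2.39 without AMB8 and 0.87 without AMB3, AMB8 and AMB10. That of LUM was 2.46, with 1.43 and 1.09 in the same sets.

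OGN, osteoglycin, also called mimecan, and FMOD, fibromodulin, kept their wide range in that smaller set. OGN (chromosome 13, 5359967 to 5380441) stood at 39.5 CPM in AMB7, 23.9 in AMB3 and 17.4 in AMB4, and at 0.760 in AMB5, 1.28 in AMB8 and 1.68 in AMB6, with a median of 8.45. Its log2 range was 5.63, also without AMB3, AMB8 and AMB10. FMOD stood at 18.7 CPM in AMB7, 18.2 in AMB3 and 1.54 in AMB8, with a median of 5.40 and a range of 3.57. ASPN, asporin, which lies 44113 bases from OGN with 1 other coding gene between, ran from 1.87 CPM in AMB8 to 7.14 in AMB3 (median 3.71), a range of 1.92 that was 1.23 without AMB3. BGN, biglycan, differed least of the proteoglycans, from 25.8 CPM in AMB9 to 46.7 in AMB4 (median 31.0).

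Elastin stood out in one library. ELN (chromosome 4, 135693183 to 135738243), the rubber-like protein of artery walls, was at 193 CPM in AMB4 and 42.0 in AMB3, and between 4.94 and 16.6 in the other libraries, with a median of 11.8. Its log2 range of 5.28 was 3.08 without AMB4. The contractile proteins of vascular smooth muscle had the same highest libraries: AMB4 had 128 CPM of ACTA2, the actin of smooth muscle, AMB3 had 47.5, and the others had 5.18 to 17.2. For MYH11, the matching myosin, AMB4 had 59.0 CPM, AMB3 had 16.0, and the others had 0.453 to 5.54. Of the 11 genes tested in the smooth muscle and pericyte list, 7 had a range of at least 1, beside 36.1% of all genes. A range of at least 2 was found in 3, the contractile genes ACTA2, MYH11 and TAGLN, beside 9.0% of all genes. Summed levels of the 12 genes ran from 202.5 CPM in AMB8 to 510.1 in AMB4. The contractile gene CNN1 had no count in AMB5. The pericyte gene RGS5 lay between 72.4 CPM in AMB8 and 120.5 in AMB10, a range of 0.73. The part of these cells in the elastin value was not tested.

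Other genes of elastic fibres were more even. MGP, which inhibits mineral deposits in vessel walls, was highest in AMB4 (11.2 CPM), AMB7 (7.33) and AMB3 (6.33), and lowest in AMB6 (1.68), with a median of 2.99. FBN1, fibrillin, the microfibril around elastin, lay between 7.25 CPM in AMB5 and 17.0 in AMB4 (median 13.1). Its range of 1.23 was 0.80 without AMB5. FBLN1, fibulin, lay between 18.6 CPM in AMB8 and 40.6 in AMB3 (median 26.6), and its range of 1.13 was 0.66 without AMB3.

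Several genes had their extremes in AMB8 and AMB10, where the hippocampal field markers PROX1 and FIBCD1 were highest. These libraries were the 2 lowest for 10 of the 53 genes, beside 11.6% of all genes, and the 2 highest for 6, beside 11.9%. The interneuron marker list summed to 288.9 CPM in AMB8 and 419.7 in AMB10, and to 506.9 to 675.7 elsewhere. GAD1, SST and LHX6 of this list were lowest in AMB8 and next lowest in AMB10. GAD2 and VIP were lowest in AMB8 but not low in AMB10, and PVALB was highest in AMB10. The part of the field or cell makeup of the samples in the collagen and matrix values was not tested. COL26A1 (chromosome 4, 138516681 to 138718281) had 6.24 CPM in AMB8 and 6.94 in AMB10, where each other library had between 31.0 and 87.6 (median 59.9). ABI3BP (chromosome 2, 20666587 to 20915184), a secreted matrix protein, had 1.03 CPM in AMB8, 5.30 in AMB10, 23.4 in AMB5 and 95.1 in AMB7 (median 66.6). Its log2 range was the widest of the 53 genes, at 6.48, and was 4.16 without AMB8 and 2.02 without AMB3, AMB8 and AMB10.

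The secreted protein SPON2 (chromosome 3, 183850917 to 183857254) was low in AMB5 as well as in AMB8 and AMB10. AMB8 had 0.746 CPM, AMB10 had 0.768, AMB5 had 1.91 and AMB3 had 4.38, where the others had 24.7 to 37.3. Its median was 14.6 CPM and its range 5.58, which was 4.26 without AMB3, AMB8 and AMB10. POSTN, periostin, a matrix protein of growing connective tissue, ran from 0.879 CPM in AMB10 to 17.9 in AMB7, with 1.30 in AMB8 (median 6.07). COL23A1, a membrane-bound collagen, ran from 1.11 CPM in AMB8 and 1.17 in AMB10 up to 7.15 in AMB7 (median 4.79). For COL26A1, COL23A1 and POSTN the ranges of 3.80, 2.66 and 4.30 were 0.65, 0.58 and 1.58 without AMB3, AMB8 and AMB10. SPON1, an adhesion protein of the developing nervous system, was lowest in AMB7 (46.9 CPM) and highest in AMB10 (121), with a median of 88.0, and its range of 1.37 was 0.69 without AMB7.

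COL25A1 (chromosome 3, 79776628 to 80282523), a membrane-bound collagen of neurons that is found in amyloid plaques, had the reverse pattern. AMB10 had 106.8 CPM, AMB8 had 88.4 and AMB3 had 77.4, and the other libraries ran from 6.44 (AMB4) to 20.2 (AMB9), with a median of 17.3. AMB3, AMB8 and AMB10 were the 3 highest libraries of 5 of the 53 genes, beside 9.71% of all genes, the others being COL16A1, COL17A1, COL20A1 and COL27A1. Its log2 range of 4.05 was 1.64 without AMB3, AMB8 and AMB10. COL13A1 and COL17A1, also membrane-bound, had ranges of 1.27 and 0.91, at 1.05 to 2.56 and 0.460 to 0.893 CPM, and that of COL17A1 was 0.55 without AMB10.

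Fibril-associated collagens sit on the surface of fibrils and do not form fibrils themselves. Type IX has 3 chains. COL9A1 differed least of them, from 12.8 CPM in AMB5 to 25.1 in AMB8 (median 20.3), a log2 range of 0.97. COL9A2 separated the libraries into 2 clusters, with 39.6 to 53.1 CPM in AMB4, AMB6, AMB8 and AMB10 and 18.3 to 23.3 in the others (median 31.5). COL9A3 was lowest in AMB8 (3.09 CPM), AMB3 (4.63) and AMB10 (5.36) and highest in AMB6 (16.7), with a median of 10.4. The level of COL9A3 is uncertain to the extent that reads were counted without regard to strand, since TCFL5, with a median of 34.0 CPM, overlaps it on the opposite strand. COL9A2 and COL11A2 had AMB4, AMB6, AMB8 and AMB10 as their 4 highest libraries, as did 2.11% of all genes. MBP, myelin basic protein, which was set beside them after the values were seen, was likewise highest in these, with 1577, 774.5, 1094 and 1695 CPM, and 269 to 509.7 elsewhere. All 5 genes of the myelin list had a range of at least 2, beside 9.0% of all genes. Their summed levels ran from 655 CPM in AMB5 to 4304 in AMB10, and their part in the collagen values was not tested.

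The remaining fibril-associated collagens were highest in AMB3, AMB4, AMB6, AMB9 or AMB10. COL12A1 lay between 9.46 CPM in AMB5 and 38.5 in AMB6 (median 25.1), and its range of 2.02 was 1.35 without AMB5. COL16A1 lay between 7.42 CPM in AMB9 and 28.9 in AMB10 (median 14.4). COL19A1 lay between 6.41 CPM in AMB9 and 13.9 in AMB3 (median 11.3). It ends 3981 bases from COL9A1 on chromosome 6. COL20A1 was at 17.3 CPM in AMB10 and 1.23 in AMB9 (median 4.67), a range of 3.78 that was 2.29 without AMB10 and 2.42 without AMB9. COL14A1, COL21A1 and COL22A1 had ranges of 1.23, 1.31 and 0.64. COL15A1 and COL18A1 are vessel-associated collagens with chondroitin or heparan sulfate chains. COL15A1 lay between 4.60 and 11.1 CPM. COL18A1 lay between 13.4 CPM in AMB5 and 28.5 in AMB4 (median 22.4), and its range of 1.09 was 0.54 without AMB5.

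Rare collagens complete the set. COL8A1, a short-chain collagen of vessel walls, was at 4.37 CPM in AMB4 and 0.321 in AMB10 (median 1.17). Its partner COL8A2 did not pass the filter and was highest in AMB10 (3.35 CPM, 95% Poisson interval 2.94 to 3.80, 240 counts) and AMB4 (2.75 CPM, 2.36 to 3.19, 176 counts), with 5 to 49 counts elsewhere. These intervals, here and below, cover counting error only. COL7A1, the anchoring collagen of skin, lay between 1.31 and 3.23 CPM. COL28A1 was at 3.83 CPM in AMB7 (3.39 to 4.32, 274 counts) and had no count in AMB10, which allows up to 0.0419 CPM at 3 counts. COL10A1 had 53 counts in AMB5 and at most 14 in any other library. Its gene model overlaps TSPYL4, at a median of 191 CPM on the same strand, so its counts are uncertain.

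Pairs of genes whose products assemble or occur together, or that are neighbours, were compared over the 8 libraries in log2 CPM. Of 22 pairs, 6 of them with a marker gene of another cell type, 19 gave a value. One gene of COL8A1 and COL8A2 did not pass the filter, and both pairs with COL9A2 fell into 2 clusters of libraries. P-values are exact and 2-sided over all 40320 pairings of libraries, with Benjamini-Hochberg adjustment over the 19 pairs. By Pearson's r 4 pairs had an adjusted p of at most 0.05, and by Spearman's rho 4. The pairs were listed with earlier results of these data known, which these p-values do not take into account.

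COL1A1 and COL1A2 followed each other most closely. Pearson's r was 0.994 (exact permutation p = 9.9e-05, adjusted 0.0019) and rho 0.976 (p = 0.0004, adjusted 0.0075), and r was 1.0 without AMB4 and AMB5. The ratio of COL1A1 to COL1A2 spanned 0.40 on the log2 scale, where each gene spanned at least 2.80. COL1A2 and COL3A1 had r = 0.973 (exact permutation p = 0.001, adjusted 0.0054) and rho = 0.952 (p = 0.0011, adjusted 0.011), with r = 0.947 without AMB5 and AMB8. DCN and LUM had r = 0.895 (exact permutation p = 0.0011, adjusted 0.0054) and rho = 0.905 (p = 0.0046, adjusted 0.029), with r = 0.931 without AMB3 and AMB8. Without AMB8 alone, the libraries fell into 2 clusters in DCN or LUM and the pair gave no r. Without AMB10 no pair passed: COL1A1, COL1A2 and COL3A1 then gave no r within their pairs, since the libraries fell into 2 clusters, and DCN with LUM had r = 0.890 (exact permutation, adjusted p = 0.06).

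**Figure D4:**
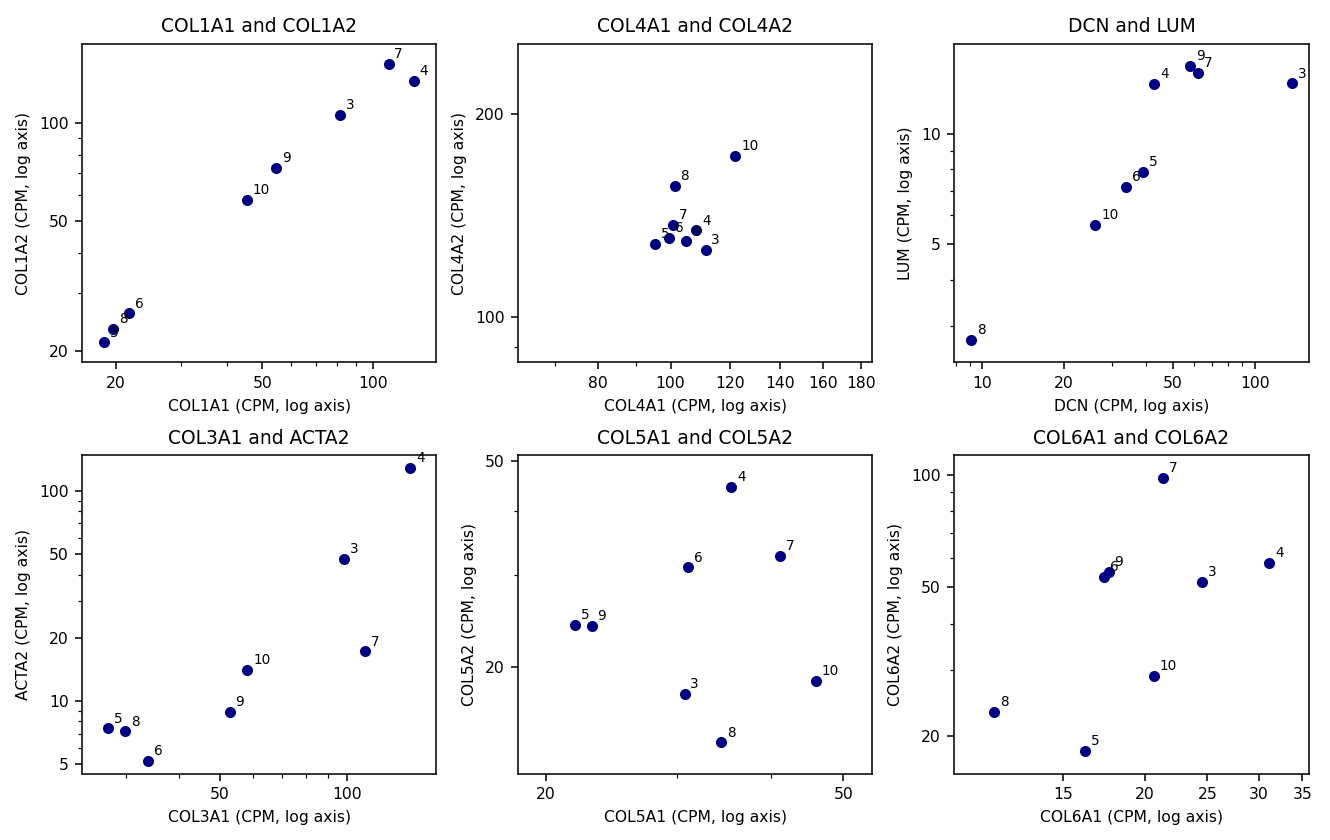
CPM of one gene (horizontal, log axis) against that of another (vertical, log axis) in the 8 libraries, each point 1 library named by its number. COL1A1 and COL1A2 lie near a line (r = 0.994), DCN and LUM less so (r = 0.895), and COL5A1 and COL5A2 show no order (r = 0.027).

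Other partners did not pass. COL4A1 and COL4A2, each with a small range, had r = 0.548 (exact permutation p = 0.16, adjusted 0.22) and rho = 0.238 (p = 0.58, adjusted 0.61), and r = -0.494 without AMB5 and AMB10, so that the relation rests on those libraries. COL4A3 and COL4A4 had r = 0.813 (exact permutation p = 0.014, adjusted 0.055) and rho = 0.833 (p = 0.015, adjusted 0.058), with r = 0.851 without AMB4 and AMB5. COL11A1 and COL11A2 had r = 0.750 (exact permutation p = 0.03, adjusted 0.081) and rho = 0.714 (p = 0.058, adjusted 0.12), with r = 0.776 without AMB5 and AMB8. COL5A1 and COL5A2 had r = 0.027 (exact permutation p = 0.95, adjusted 0.95) and rho = 0.167 (p = 0.7, adjusted 0.7), with r = 0.015 without AMB5 and AMB9. The remaining partner pairs, COL3A1 with COL5A2, COL4A5 with COL4A6, COL6A1 with COL6A2, COL6A2 with COL6A3, OGN with ASPN and ELN with FBN1, had r from 0.469 to 0.607 and adjusted p from 0.22 to 0.27 (exact permutation). Without the 2 libraries farthest from the median of the first gene, r was 0.263, 0.539, 0.443, 0.900, 0.016 and 0.257 in that order, so that the relation of OGN with ASPN rests on AMB5 and AMB8. With 8 libraries a p above the threshold does not show that 2 genes vary apart.

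With markers of other cells, COL3A1 and ACTA2 had r = 0.878 (exact permutation p = 0.0011, adjusted 0.0054) and rho = 0.881 (p = 0.0072, adjusted 0.034), with r = 0.849 without AMB4 and AMB5. Leaving out AMB4 alone gave r = 0.842 (exact permutation, adjusted p = 0.053), and leaving out AMB10 gave r = 0.879 (adjusted p = 0.06). COL1A2 with ACTA2 had r = 0.770 (exact permutation p = 0.02, adjusted 0.065) and rho = 0.810 (p = 0.022, adjusted 0.069), with r = 0.739 without AMB5 and AMB8. COL1A2 with PTGDS, a prostaglandin synthase of the leptomeninges, had r = 0.734 (exact permutation p = 0.039, adjusted 0.092) and rho = 0.738 (p = 0.046, adjusted 0.12), with r = 0.656 without AMB5 and AMB8. DCN with PTGDS, COL4A1 with PECAM1 and COL4A1 with RGS5 had r of 0.251, 0.419 and 0.635 and adjusted p of 0.59, 0.34 and 0.21 (exact permutation). Without the 2 libraries farthest from the median of the first gene, r was 0.234, 0.897 and 0.607.

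Markers of meningeal fibroblasts also differed between libraries, in an order that was in part that of the type I collagen genes. Of the 16 genes tested in that list, 15 spanned 1 or more on the log2 scale, beside 36.1% of all genes. A span of 2 or more was found in 9, beside 9.0%. For 10 the highest library was AMB4 or AMB7, beside 22.8% of all genes. Among these 10, TBX18 and ITIH2 were highest in AMB4 and the others in AMB7. Summed levels of the 17 genes with a row were, from low to high, 169.7 CPM in AMB5, 218 in AMB6, 251.5 in AMB8, 259.6 in AMB9, 283 in AMB4, 341 in AMB10, 362 in AMB3 and 545 in AMB7. AMB10 was thus above AMB4, in which the type I and III collagens summed to more. PTGDS weighs heavily in these sums, with 197.9 CPM in AMB10 and 132.4 in AMB4. Each tested gene of the list was also centred on its own median over libraries, in log2 CPM. The median over the genes was then 0.88 in AMB7, 0.43 in AMB3, 0.07 in AMB10 and 0.03 in AMB4. No gene of the list was at 0 in any library. SLC22A6, an organic anion transporter of the arachnoid, had the largest range, from 0.760 CPM in AMB5 to 22.97 in AMB7. PTGDS lay between 72.2 CPM in AMB5 and 297 in AMB7. Choroid plexus markers summed to 7.43 to 29.4 CPM, and the defining one, TTR, reached 2.47 CPM in AMB4 and 0 counts in AMB5. How much of the collagen values these cells account for was not tested.

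Outside the set, the genes with the smallest mean difference from COL1A2 in centred log2 CPM over the 8 libraries were ISLR (0.18), PI16 (0.27), PCOLCE (0.30), IGF2 (0.33) and ALDH1A3 (0.43), where the median over all other genes was 0.99. ISLR and PI16 are known from fibroblasts, and PCOLCE speeds the removal of the end peptide from procollagen. PCOLCE stood at 14.9 CPM in AMB7 and 2.83 in AMB5. IGF2, the fetal growth factor, stood at 13.8 CPM in AMB7 and 3.11 in AMB8. Closest to DCN were BNIP5 (0.29), RSPO2 (0.31), MAP1LC3C (0.33), GPR149 (0.38) and GPR179 (0.40), where the median was 0.80. MAP1LC3C and GPR149 were at low levels, with medians of 0.983 and 0.851 CPM, as was ALDH1A3 above, with 0.820. RSPO2, a secreted enhancer of Wnt signalling, stood at 31.2 CPM in AMB3 and 6.03 in AMB8. No gene was among the 5 closest of both.

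Genes that make, crosslink, bind and break down collagen had a smaller median range than the 53 collagen and matrix genes. All 47 listed genes passed the filter. Of these, 25 spanned 1 or more on the log2 scale, beside 36.1% of all genes, and 7 spanned 2 or more, beside 9.0%. Their median range was 1.03, against 0.77 over all genes. Genes of chain folding and modification ranged from even to uneven. P4HB, the disulfide isomerase subunit of prolyl hydroxylase, lay between 137.5 and 161 CPM, and COLGALT1, which adds galactose to hydroxylysine, between 24.0 and 28.4 CPM. SERPINH1, the collagen chaperone, lay between 27.9 CPM in AMB9 and 44.8 in AMB3. PLOD2, a lysyl hydroxylase, P3H3, a prolyl hydroxylase, and COLGALT2, a galactosyltransferase, had ranges of 1.44, 1.63 and 1.92. The 7 genes of wide range were LOX, LOXL2 and LOXL4, crosslinking oxidases, PCOLCE and PCOLCE2, enhancers of procollagen cleavage, and ADAMTS3 and ADAMTS14, procollagen proteases. LOXL4 had the largest range, 3.58, from 0.197 CPM in AMB3 to 2.74 in AMB7. LOXL2 was at 13.2 CPM in AMB7 and 2.61 to 5.53 elsewhere. ADAMTS3 was at 81.6 CPM in AMB8, 78.0 in AMB3 and 52.7 in AMB10, and between 16.0 and 20.1 elsewhere. TIMP2, an inhibitor of matrix proteases and the gene of highest median in the list, lay between 633.5 CPM in AMB8 and 1101 in AMB3. SPARC, a collagen-binding glycoprotein, lay between 339 CPM in AMB7 and 690 in AMB4, and the collagen receptor DDR2 between 4.004 CPM in AMB5 and 10.8 in AMB3.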

How the data were processed

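Total RNA of 8 libraries was sequenced from strand-specific libraries made from 25 ng, per the labels' protocols. The authors deposited 1 table per RefSeq gene with raw columns of estimated counts and normalized columns, which the authors put on a log2 scale. In these, the median over AMB3, AMB8 and AMB10 is 0 for 100% of the tested genes. DESeq is named per the submitters' processing notes. No source used here names the aligner, the counter or the build. All 58 genes matched the RefSeq table of the assembly Panubis1.0 by identifier, with equal start and end.

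Estimated counts were rounded. Genes were filtered by filterByExpr (edgeR 4.0.16, R 4.3.3; minimum count 10 scaled to library size, in all libraries), normalized by factors from the trimmed mean of M-values (TMM) and put on a log2 CPM scale with a prior count of 2. Range recovery was tested on simulated data. No count test was fitted, since no library has a group. Pairs used Python 3.11.15 and scipy 1.17.1, and gave no r where a gap wider than 0.5 of a gene's range left 2 or more libraries on either side.

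Context lists, like members and pairs, were chosen with earlier results of these data known. Genes were named where the median CPM was at least 10 or the log2 range at least 2, or as members of a pair. The other members are given by range or counts. The tested gene of highest median and that of largest range were named for some context lists. These are collagen synthesis and breakdown, meningeal fibroblasts, smooth muscle and pericytes, and hippocampal neurons. Other genes of these lists, and those of the endothelial, choroid plexus, myelin and interneuron lists, were picked after their values were seen. Lists of oligodendrocyte precursors, astrocytes and red blood cells are not described.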

Additional observations from a re-analysis of the deposited data

Results flagged for a closer look

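Each of the 53 tested genes was examined for 1 library that lies far from the others, meaning that its gap to the nearest library, as a share of the whole range in log2 CPM, exceeded Dixon's 95% critical value. Chance alone flags about 1 in 20 such sets, and 1 of the 53 genes met the rule. COL4A6 had its highest level in AMB3, at 4.14 CPM, with a gap of 1.25 on the log2 scale, or 0.57 of its range.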

How the results depend on the processing

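The numbers of genes spanning 1 (46) or 2 (26) on the log2 scale, of genes lowest in AMB8 or AMB10 (18) and of pairs past the threshold (4) stayed within 1.5 times under library size alone, relative log expression and upper quartile factors, a prior count of 0.5, a looser filter (at least 10 counts in 1 library) and the deposited log2 columns. Leaving out each library in turn gave 43 to 46, 24 to 26, 10 to 28 and 0 to 6. The extremes of the third were without AMB8 (10) and without AMB5 (28), and the 0 came without AMB10, where 6 pairs fell into 2 clusters of libraries. In an alternative chosen after seeing the data, without AMB3, AMB8 and AMB10, 15 genes had a range of at least 2. Of the 53 genes, 23 moved in range by more than their SD between libraries in that alternative, 4 without AMB4 and AMB7, and none under another scaling, prior count or filter or with the deposited columns. No paired analysis was possible because no library has a group. Depth limits the genes with under 10 counts in a library, namely COL2A1, COL6A5, COL8A2, COL10A1 and COL28A1.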
